A study of Mus musculus with 4 samples.

Results

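The plasminogen activator system was followed through 5 genes of the expression table, chosen by symbol: Plat, Plau, Plaur, Serpine2 and Serpini1. The choice was made with earlier results of these data known. All 5 were found among the 22552 genes of the table, and all 5 reached 1 FPKM (a fragment count divided by transcript length and by library depth) in at least 1 library, as did 13248 genes in all. Plaur reached it in 3 of the 4 libraries and stayed under it, at 0.794, in wild type at basal KCl. The libraries came from primary mouse cortical neurons cultured from E16.5 embryos. The 2 genotypes were wild type and a Brg1 conditional knockout (cKO), in which floxed Brg1 alleles (Brg1F/F) were combined with BAF53bCre. Brg1, encoded by Smarca4, is the motor subunit of BAF, a chromatin remodelling complex. BAF53b is a neuronal subunit of that complex, so this Cre is meant to act in neurons. Whether other cell types of the culture kept their Brg1 was not measured. Each genotype was sampled at basal KCl and after 50 mM KCl for 6 h, which depolarizes neurons. On day 5 in vitro the cultures received the sodium channel blocker TTX (1 µM) and the NMDA receptor blocker APV (100 µM). Both blockers are listed for all 4 groups, the basal ones included. For depolarization, KCl followed on day 6. Each of the 4 groups held 1 library, so the spread between cultures is unknown, no test was possible, and "higher" and "lower" describe these libraries only.

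Plat encodes tissue plasminogen activator (tPA) and Plau encodes urokinase (uPA), serine proteases that cleave plasminogen to plasmin. Plaur encodes the cell-surface receptor that holds urokinase at the membrane. Serpine2 (protease nexin 1) and Serpini1 (neuroserpin) encode serpins, inhibitors that trap their protease in a covalent complex: neuroserpin acts mainly on tPA, and protease nexin 1 on thrombin, urokinase and tPA. In cortex this system is known for activity-linked tPA release, processing of matrix and proneurotrophins, and synaptic plasticity.

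Promoter sequence was matched by symbol for 3 of the 5 members in RefSeq (build GRCm38.p6). Plat and Plau had no entry in the promoter set used, so only these 3 are shown. Of them, Plaur and Serpine2 were higher with KCl and Serpini1 was lower. The windows hold the 250 bases before the RefSeq transcription start, read 5′ to 3′ on the strand of the gene. In Serpine2 the last 31 bases, which overlap an annotated exon, are left out, so that 219 bases are printed. Capitals mark matches, on either strand, to the AP-1 site (TGANTCA), the cAMP response element (TGACGTCA), the GC box (GGGCGG) and an early growth response site (GCGNGGGCG).
Plaur (chr7:24462233-24462482, + strand): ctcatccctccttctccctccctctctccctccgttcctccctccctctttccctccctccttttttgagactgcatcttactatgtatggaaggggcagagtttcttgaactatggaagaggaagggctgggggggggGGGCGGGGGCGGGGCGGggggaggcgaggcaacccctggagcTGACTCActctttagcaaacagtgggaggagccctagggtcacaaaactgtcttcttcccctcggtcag
Serpine2 (chr1:79858697-79858915, - strand): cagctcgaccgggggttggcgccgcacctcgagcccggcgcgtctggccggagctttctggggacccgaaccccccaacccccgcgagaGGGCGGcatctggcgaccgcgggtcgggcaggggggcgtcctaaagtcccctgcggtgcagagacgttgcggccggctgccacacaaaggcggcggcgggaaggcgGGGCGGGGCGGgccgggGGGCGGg
Serpini1 (chr3:75557243-75557492, + strand): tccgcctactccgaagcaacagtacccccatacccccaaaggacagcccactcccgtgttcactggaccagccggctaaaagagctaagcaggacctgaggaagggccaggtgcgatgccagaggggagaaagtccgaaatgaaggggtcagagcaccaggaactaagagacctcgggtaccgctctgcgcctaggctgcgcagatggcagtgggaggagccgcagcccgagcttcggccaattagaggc

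The Plaur window holds 1 AP-1 site, TGACTCA, at positions -69 to -63 from the start, a motif found in 6.75% of 32851 RefSeq promoter windows of the same length. It also holds 3 GC boxes between -111 and -95, of which the last 2 share 1 base, and 1 early growth response site at -109 to -101. The RefSeq start used here lies 1546 bases inside the span that RefSeq gives for Plaur. In Serpine2 the full 250-base window holds 6 GC boxes and 1 early growth response site, at -17 to -9, overlapping the last 2 GC boxes, both of which lie in the bases left out. Of all windows, 32.7% hold a GC box and 4.70% the early growth response site. None of the 4 motifs was found in the Serpini1 window, and none of the 3 windows holds the cAMP response element (1.55% of all windows). GC content was 78.8% in the Serpine2 window, 61.2% in Serpini1 and 59.6% in Plaur, against a median of 52.4% over all windows. Such matches describe letters in a window and were not tied to binding by any measurement here.

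The FPKM values of the libraries summed to between 302041 and 330621, and the approximated depths ranged from 21200000 to 23800000 fragments. Smarca4, the targeted gene, was at 34.0 FPKM in wild type before and at 28.5 after KCl, against 10.5 and 10.4 in the cKO libraries. Fos, an immediate early gene, followed the KCl label (2.40 and 203.4 FPKM in wild type, 3.69 and 224.1 in cKO cultures), as did Npas4 (0.967 and 75.7, then 0.694 and 58.4). Neuronal markers were present, with Rbfox3 at 33.3 to 38.1 FPKM, but the cultures also held glial RNA: Gfap was at 144.6 to 200.7 FPKM and Fabp7 at 1013 to 1740. The X-linked Xist was at 83.3 and 78.1 FPKM in wild-type libraries and at 0.141 and 0.287 in those of the cKO, and the Y-linked Eif2s3y at 0.0518 and 0 against 32.9 and 39.0. Sex and genotype therefore cannot be told apart in any cKO comparison. In bulk libraries, fewer cells of a type and less RNA per cell cannot be told apart either.

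Among the 5 members, levels per transcript length kept Serpine2 first and Plau and Plaur last in all 4 libraries. In the wild-type basal library the order was Serpine2 (72.5 FPKM), Serpini1 (52.4), Plat (20.1), Plau (5.06) and Plaur (0.794), and no 95% counting intervals of these levels overlapped. Serpine2 was above 94.2% of the retained genes in that library, whereas Plaur was above 5.00%. After KCl in wild type, Plat (36.2 FPKM, counting interval 34.6 to 37.9) and Serpini1 (35.7, interval 34.5 to 37.0) could no longer be ordered. In the cKO KCl library Serpini1 (33.9 FPKM, interval 32.7 to 35.1) stayed above Plat (27.5, interval 26.2 to 28.9). All such intervals come from approximated fragment numbers and cover counting error only.

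**Figure D1:**
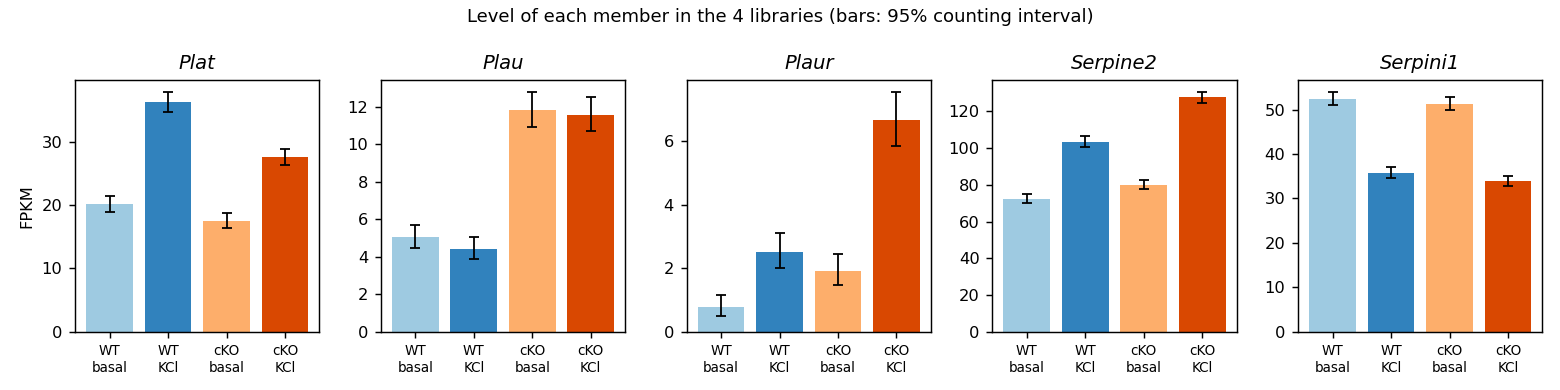
Level of each member in FPKM (vertical axis, linear from 0, scaled per gene) in the 4 libraries, with bars for the deposited value and error bars for the 95% counting interval. Plat and Serpine2 are higher and Serpini1 lower in both KCl libraries, Plau is higher in both cKO libraries, and Plaur is highest in the cKO KCl library at 6.68 FPKM.

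KCl against basal addresses the response to depolarization in each genotype. Smarca4 RNA was lower in the cKO libraries but not absent. Within wild type, Plaur and Plat had the largest ratios of the members, Serpine2 was higher by a smaller ratio, Plau differed little and Serpini1 was lower. On the log2 scale after adding 1 FPKM to both values, 0 of the 5 members were past 2-fold in wild type, where 5.07% of retained genes were past it upwards and 3.31% downwards. In the cKO 1 of the 5, Plaur, was past 2-fold and higher, against 4.41% of retained genes, and 0 were past it downwards, against 3.09%. Each member lay on the same side of 0 in both genotypes: 3 of 5 above it (42.7% of retained genes did) and 2 of 5 below (42.3%), although Plau lay so close to 0 that it moved above 0 in both when the presynaptic genes were set equal between libraries.

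Plat, the tPA gene, had 20.1 FPKM at basal and 36.2 after KCl in wild-type cultures, and 17.5 and 27.5 in cKO cultures. Both KCl libraries were above both basal libraries. KCl was 1.80-fold above basal in wild type (95% counting interval 1.67 to 1.94) and 1.57-fold in the cKO (1.45 to 1.70). On the log2(FPKM + 1) scale these responses were 0.82 and 0.62, exceeded by 7.56% and 10.3% of retained genes. With ribosomal protein genes set equal between libraries they were 0.44 and 0.18.

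Serpine2, the protease nexin 1 gene, had 72.5 FPKM at basal KCl and 103.6 after KCl in wild type, and 80.2 and 127.7 in the cKO. KCl libraries were again the higher pair. The KCl ratio was 1.43 in wild type (1.37 to 1.49) and 1.59 in the cKO (1.53 to 1.66), log2 responses of 0.51 and 0.66. Setting ribosomal protein genes equal gave 0.12 and 0.20. The astrocyte and radial glia markers, cell types in which Serpine2 is also known to be expressed, summed to 1516 FPKM at basal and 2184 after KCl in wild type, and to 1737 and 2291 in the cKO. Fabp7 made up most of these sums, 5 of 6 markers were above basal in wild type and 4 of 6 in the cKO, and none was at 0. Their part in the Serpine2 difference was not tested.

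Serpini1, the neuroserpin gene, was the member that was lower with KCl, at 52.4 FPKM at basal and 35.7 after KCl in wild type and at 51.3 and 33.9 in the cKO. The basal pair and the KCl pair did not overlap, and within each pair the genotypes lay close together. KCl was 1.47-fold below basal in wild type (1.40 to 1.54) and 1.51-fold below in the cKO (1.45 to 1.58). The log2 responses were -0.54 and -0.58, with 14.4% and 11.1% of retained genes lower still. With ribosomal protein genes set equal the responses were -0.92 and -1.04, the second past 2-fold, and with presynaptic genes set equal -0.28 and -0.31. The 4 pan-neuronal markers moved unequally beside it, summing to 1490 and 584.3 FPKM in wild type and 1423 and 510.3 in cKO cultures, with 2 of 4 higher after KCl in wild type and 1 of 4 in the cKO: Tubb3 went from 1187 to 278.4 FPKM in wild type, Syt1 from 152.1 to 127.0, while Rbfox3 went from 33.8 to 38.1. The 6 interneuron markers were all lower with KCl in both genotypes, summing to 90.3 and 22.5 FPKM in wild type and 72.5 and 16.7 in cKO cultures. Whether these shifts bear on Serpini1 was not tested.

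Plaur, the urokinase receptor gene whose window carries the AP-1 site shown above, had 0.794 FPKM at basal and 2.52 after KCl in wild type, and 1.92 and 6.68 in the cKO. Its wild-type basal value was the lowest of the 4 and its cKO KCl value the highest, while wild type after KCl and cKO at basal had overlapping counting intervals. Plaur was 3.18-fold above basal with KCl in wild type (2.03 to 5.25) and 3.48-fold in the cKO (2.62 to 4.66). These rest on about 25 and 81 fragments in wild type and 63 and 239 in cKO cultures. The log2(FPKM + 1) responses, which understate the change of low genes, were 0.97 and 1.40, with 5.38% and 1.98% of retained genes higher. Wild-type Plaur was thus just under the 2-fold line, and past it when 0.1 or 0.5 FPKM was added instead of 1 (1.55 and 1.22) or presynaptic genes were set equal.

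Plau, which encodes urokinase itself, did not follow its receptor. It was at 5.06 FPKM at basal and 4.44 after KCl in wild type, and at 11.8 and 11.6 in the cKO. The KCl ratio was 0.88 in wild type (0.73 to 1.05) and 0.98 in the cKO (0.88 to 1.10), and both counting intervals include 1. The level of Plau relative to Plaur was accordingly 6.37 at basal and 1.76 after KCl in wild type, and 6.17 and 1.73 in the cKO. Plat relative to Plau went the other way, from 3.98 to 8.16 in wild type and from 1.48 to 2.38 in the cKO.

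**Figure D2:**
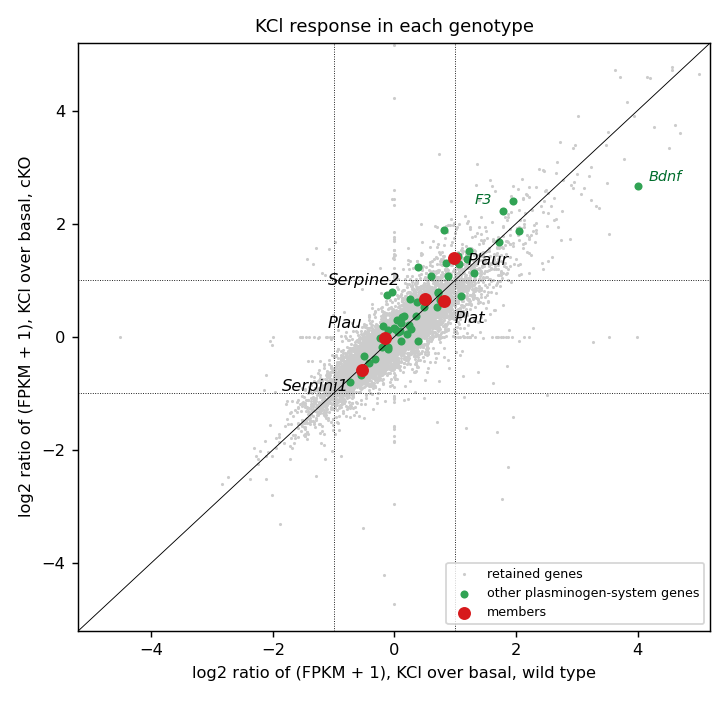
KCl response in wild type (horizontal) against the cKO (vertical), both as the log2 ratio of FPKM + 1, for retained genes (grey), 50 other retained genes of the plasminogen system (green) and the 5 members (red). Dotted lines mark 2-fold, the diagonal marks equal responses, 5 genes lie outside the frame, and Bdnf lies far above the members in both genotypes.

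The difference between the responses, cKO minus wild type on the log2 scale, was small for the members beside 2-fold: 0 of 5 were past it, against 1.46% of retained genes in either direction. It was -0.19 for Plat, where the cKO ratio was 0.87 times the wild-type ratio (counting interval 0.78 to 0.98), and 0.16 for Serpine2, where it was 1.11 times (1.05 to 1.18). Both intervals leave out 1, although that of Plat takes it in (0.75 to 1.02) if the true depth were 0.5 of the approximation. For Plaur the log2 difference was 0.42 and the ratio of ratios 1.10 (0.65 to 1.85). Plaur started from a higher level in the cKO, so adding 1 FPKM compresses its wild-type response more. Plau (1.12, interval 0.90 to 1.38) and Serpini1 (0.97, interval 0.91 to 1.03) also had intervals that include 1.

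Setting cKO against wild type within a condition shows which members differed with genotype. Plau and Plaur were higher in the cKO at basal KCl and after KCl, Serpine2 was slightly higher, Plat was lower and Serpini1 was nearly equal. At basal KCl 1 of 5 members, Plau, was past 2-fold and higher (0.936% of retained genes were), and 0 were past it downwards (0.551%). After KCl, 2 of 5, Plau and Plaur, were past 2-fold and higher, against 1.87% of retained genes, and 0 were past it downwards (0.944%). In both conditions 3 of 5 lay above 0 (35.4% of retained genes did) and 2 of 5 below (27.7%). The conditions share no library, but they share the difference in sex between genotypes.

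For Plau the 2 cKO libraries, at 11.8 and 11.6 FPKM, both lay above the wild-type libraries at 5.06 and 4.44. The cKO level was 2.34-fold above wild type at basal KCl (2.02 to 2.72) and 2.61-fold after KCl (2.24 to 3.06). Log2 differences of 1.08 and 1.21 placed it 94th and 137th from the top of the 13248 retained genes. It remained past 2-fold under the 2 other pseudocounts and the 4 rescalings, between 1.07 and 1.44. The 2 other filters could not change its ratio. Plaur was 2.42-fold higher in the cKO at basal KCl (1.52 to 4.07) and 2.65-fold after KCl (2.05 to 3.46). Its log2 differences were 0.70 and 1.12, the first past 2-fold only when 0.1 FPKM was added (1.17).

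Markers of other cell types differed between genotypes beside Plau and Plaur. The 6 microglia and macrophage markers, cells that are known to express urokinase and its receptor, were all higher in the cKO in both conditions. They summed to 118.6 FPKM in wild type and 249.9 in cKO cultures at basal KCl, and to 153.2 and 342.0 after KCl, ratios of 2.11 and 2.23. Pericyte and fibroblast markers were higher in the cKO in 5 of 6 cases at basal KCl and 6 of 6 after KCl, with sums of 20.5 and 61.5 FPKM and of 35.1 and 133.1. Oligodendrocyte lineage markers summed lower in the cKO, at 438.1 and 282.0 FPKM at basal KCl and 538.9 and 251.3 after KCl. No gene of these 3 lists was at 0 in any library. Endothelial markers summed to 1.19 to 6.05 FPKM, and Cldn5 among them was listed at 0 in all 4 libraries. The part of these cells in the Plau and Plaur differences was not tested.

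Plat was lower in the cKO in both conditions, 1.15-fold at basal KCl (1.05 to 1.26) and 1.31-fold after KCl (1.23 to 1.40). The log2 differences were -0.19 and -0.38. Setting presynaptic genes equal moved the first to 0.03, so its direction at basal KCl is not firm, and the second to -0.15. Excitatory neuron markers summed to 330.7 FPKM in wild type and 345.7 in cKO cultures at basal KCl, with 3 of 6 higher in the cKO, and to 317.3 and 214.8 after KCl, with 0 of 6 higher. None was at 0, and their part in the Plat difference was not tested. Serpine2 was 1.11-fold higher in the cKO at basal KCl (1.06 to 1.16) and 1.23-fold after KCl (1.19 to 1.28). Serpini1 had cKO to wild-type ratios of 0.98 (0.94 to 1.02) and 0.95 (0.90 to 0.996), and both became larger than 1 with presynaptic genes set equal (log2 differences of 0.19 and 0.16).

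**Figure D3:**
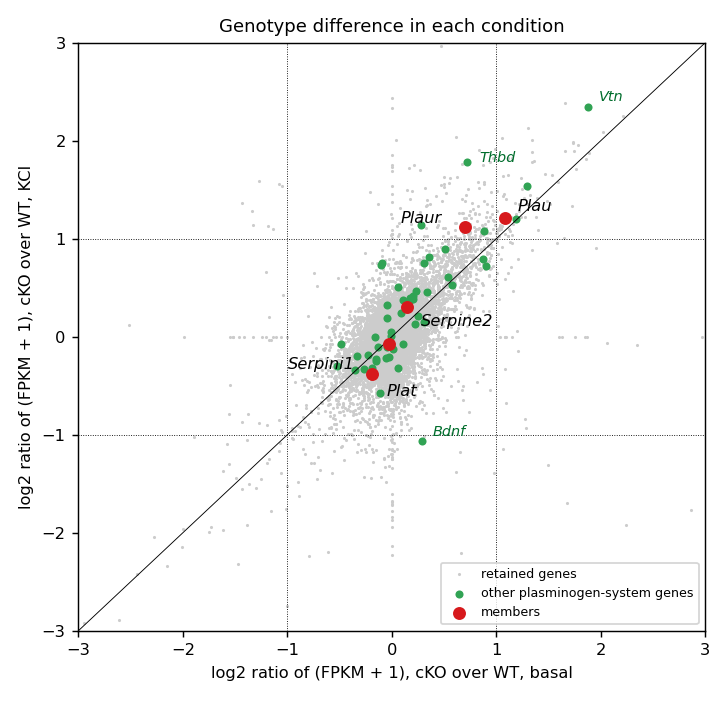
Difference of cKO from wild type at basal KCl (horizontal) and after KCl (vertical), as the log2 ratio of FPKM + 1, with colours and lines as in the plot of KCl responses and 19 genes outside the frame. Plau and Plaur lie at the upper right (1.08 and 1.21, 0.70 and 1.12), Serpine2 and Serpini1 near the centre, and Plat below 0 on both axes.

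Activators and inhibitors were also set beside each other as summed FPKM. Plat and Plau together had 25.2 FPKM against 125.0 for Serpine2 and Serpini1 in wild type at basal KCl, a ratio of 0.20. After KCl this ratio was 0.29 in wild type, and in the cKO it was 0.22 at basal and 0.24 after KCl. Other inhibitors of plasminogen activators, plasmin and thrombin are left out of these sums. Of those listed, 5 were retained, and all 5 were higher with KCl in both genotypes. The ratio and its direction therefore hold for the summed members only. The sums are mRNA levels per transcript length and say nothing of protease activity.

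Other genes of the system were listed by role, 74 in all, of which 72 were in the table and 52 reached 1 FPKM in at least 1 library. The lists were chosen with earlier results of these data known, so their counts and medians describe these genes and are not support for a response of the system. KCl was past 2-fold above basal for 13 of the 72 in wild type and 16 in cKO cultures and past 2-fold below for 0 in both. Of all 22552 genes, 2.98% were past it upwards and 1.95% downwards in wild type, and 2.59% and 1.82% in cKO cultures. With ribosomal protein genes set equal, 8 of the 52 retained genes of the list were past 2-fold higher and 1 lower in wild type. In cKO cultures 10 were higher and 2 lower. Under the same scaling, 384 of all 13248 retained genes were past 2-fold higher and 1296 lower in wild type. The cKO counts over all retained genes were 294 and 1331. The median log2 response of the 72 genes was 0.20 in wild type and 0.29 in cKO cultures, beside a median of 0 over all 22552 genes in each. Between genotypes, 3 of the 72 were past 2-fold and higher in the cKO at basal KCl and 0 were lower, beside 0.55% and 0.324% of all genes. After KCl 7 were higher and 1, Bdnf, was lower, beside 1.1% and 0.554% of all genes. The log2 medians were 0.03 and 0.05, again beside 0 over all genes.

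Plasminogen itself was nearly absent: Plg was at 0.0440 to 0.133 FPKM, under the 1 FPKM limit in every library. Of the inhibitors, Serpinb8 was at 0.151 and 1.84 FPKM in wild type and 0.243 and 1.70 in cKO cultures. Serpinb2, which encodes PAI-2, was at 0.0927 and 0.423 and at 0.0230 and 1.39. The Serpinb2 values rest on about 4 and 18 fragments in wild type and 1 and 66 in cKO cultures. Only its cKO KCl value reached 1 FPKM. Serpinf2, the plasmin inhibitor gene, did not reach 1 FPKM (0.0772 to 0.562). Serpinh1, a collagen chaperone and not a protease inhibitor, was at 35.1 and 65.7 FPKM in wild type and 39.8 and 85.3 in cKO cultures.

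Receptors and co-receptors for plasminogen and its activators were past 2-fold higher with KCl in 5 of the 20 genes in the table in each genotype, beside the 2.98% and 2.59% of all genes given above. Anxa2, whose protein binds plasminogen and tPA at the cell surface, was at 6.28 FPKM at basal and 29.0 after KCl in wild type and at 12.6 and 48.4 in the cKO. The integrin genes Itgb1 (47.3 and 112.5 FPKM in wild type, 50.9 and 146.6 in cKO cultures), Itgav (7.06 and 25.6, then 11.0 and 37.4) and Itga5 (1.63 and 9.18, then 2.37 and 16.9) were past 2-fold in both genotypes. Sdc1, a syndecan gene, was past it in wild type (7.65 and 17.5 FPKM) and not in the cKO (8.04 and 13.9), and this difference was not tested. Vtn, encoding vitronectin, which binds the urokinase receptor, differed with genotype: 1.75 FPKM in wild type and 9.12 in cKO cultures at basal KCl, and 3.20 and 20.4 after KCl. Itgam, a microglial integrin gene, was at 4.49 and 11.5 FPKM at basal KCl and 6.01 and 15.1 after KCl.

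Thrombin (F2), a target of protease nexin 1, was at 0 to 0.0877 FPKM. Of genes that act around it, F3, the tissue factor gene, was at 11.9 and 43.5 FPKM in wild type and 12.5 and 62.1 in cKO cultures, and F2r, a thrombin receptor gene, at 22.0 and 47.2 and at 24.9 and 62.3. Thbd, encoding thrombomodulin, was at 1.01 FPKM at basal and 2.53 after KCl in wild type and at 2.31 and 11.2 in the cKO. Of the substrates, Bdnf, whose precursor plasmin can cleave, was at 0.734 and 27.0 FPKM in wild type and 1.12 and 12.4 in cKO cultures. Plat and Bdnf were thus both higher with KCl in both genotypes, Plat by far smaller ratios. Fn1, the fibronectin gene, was at 19.0 and 40.2 FPKM in wild type and 27.4 and 75.8 in cKO cultures, and the laminin gene Lamc1 at 10.6 and 25.4 and at 12.3 and 33.5. Mmp2, a matrix metalloproteinase gene, and Tgfb1 were higher in the cKO in both conditions. Mmp2 was at 1.43 FPKM in wild type against 4.98 at basal KCl and at 2.16 against 8.19 after KCl, and Tgfb1 was at 3.22 against 6.78 and at 3.72 against 8.97.

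**Figure D4:**
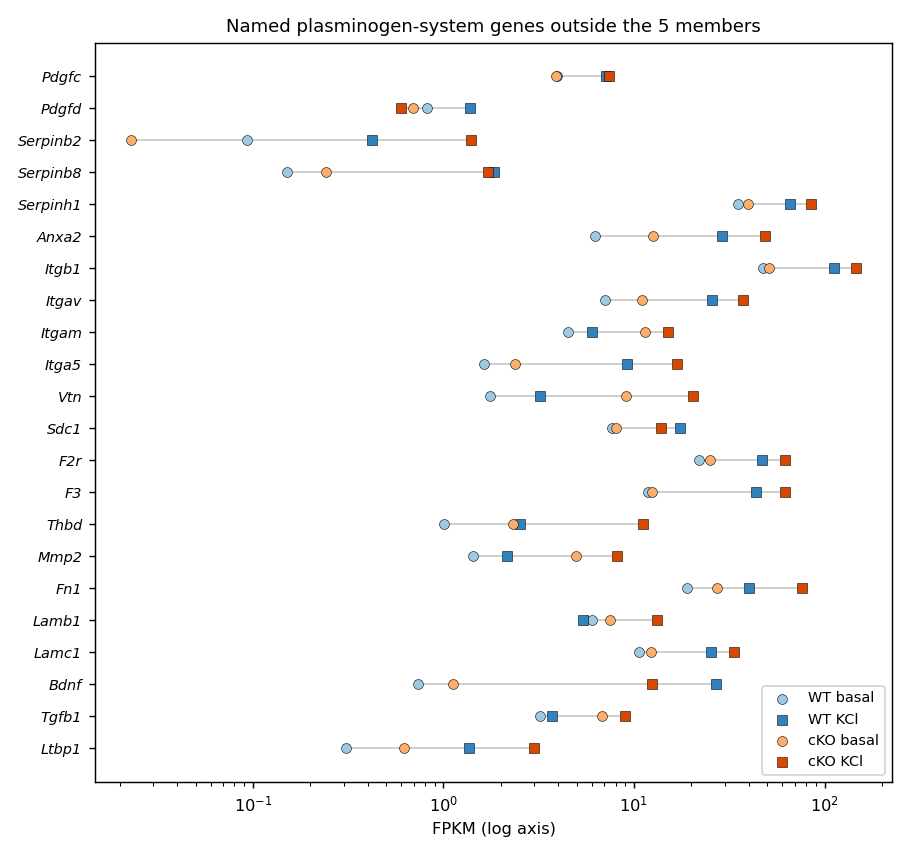
FPKM (log axis) of 22 plasminogen-system genes outside the members that the rule for named genes selected, with circles for basal and squares for KCl libraries, blue for wild type and orange for the cKO. Of the genes shown, Bdnf spans the widest KCl range among those whose highest value is above 10 FPKM, and Vtn is higher in both cKO libraries than in both wild-type libraries.

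The genes most like each member were found by Euclidean distance of mean-centred log2(FPKM + 1) over the 4 libraries, a description that uses 4 values per gene. Plat was nearest to Dnajc25 (distance 0.04), Odc1 (0.05) and Hipk2 (0.05). Odc1, for example, was at 14.7 and 25.9 FPKM in wild type and 12.1 and 19.8 in cKO cultures. Plau was nearest to Nid2 (0.06), Rasgrp3 (0.06) and Tgfbr2 (0.10), and Tgfbr2 was at 5.95 and 5.33 FPKM in wild type and 13.0 and 12.5 in cKO cultures. Plaur was nearest to Myh9 (0.06), Myof (0.09) and Anxa5 (0.11), and Myof was at 0.739 and 2.59 and at 1.84 and 7.02. Serpine2 was nearest to Cks1b (0.01), Vps13a (0.03) and Pik3cb (0.03), and Serpini1 to Rbm24, Prkaa2 and Unc79 (0.03 each).

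**Figure D5:**
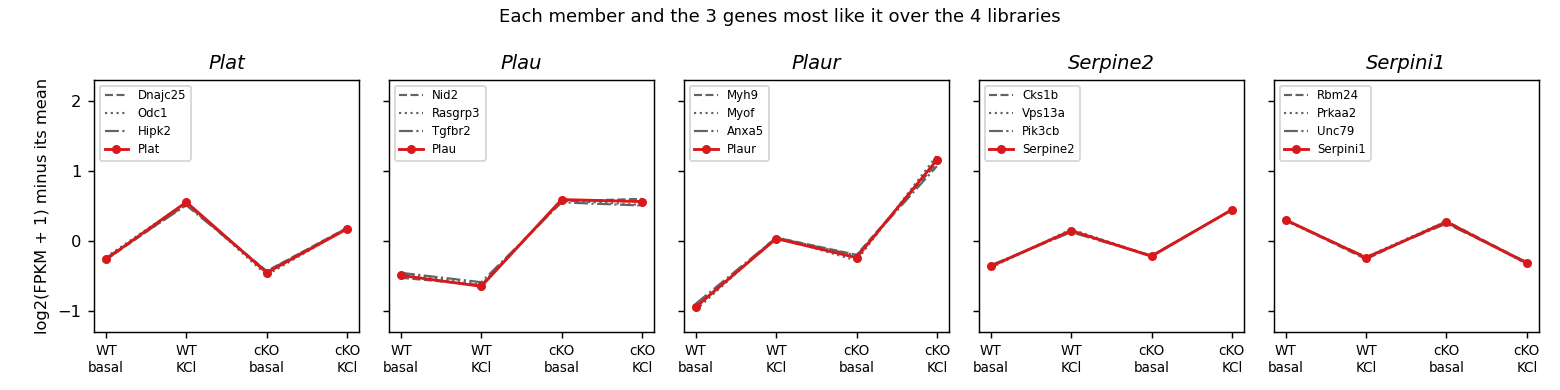
Mean-centred log2(FPKM + 1) (vertical axis) of each member (red) and its 3 nearest genes (grey) across the 4 libraries. The grey lines lie within 0.11 of their member in total distance, and the 5 members show 4 shapes: KCl-high with wild type above (Plat), KCl-high with the cKO above (Plaur, Serpine2), cKO-high (Plau) and KCl-low (Serpini1).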

How the data were processed

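RNA sequencing values were taken from the table the authors deposited, with 1 column per library and 1 library per group, each assigned by its label. Per the submitters' processing notes, TopHat 1.3.2 and the build mm9 were used. The quantification program, gene annotation and filtering were not given in the sources used here. The deposited values were read as FPKM from the values themselves, since the labels name no unit. A gene was retained if any library had it at 1 FPKM or above. Log2 ratios were taken after adding 1 to both values, and 2-fold on that scale was counted. No p-value is given, because 1 library per group leaves no residual degree of freedom. Printed folds are ratios of deposited values.

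Depth was approximated from the most frequent value of 1 fragment on transcripts over 2000 bases, with lengths of the longest coding transcript in GENCODE M21. The 95% intervals are exact binomial (folds), exact Poisson (levels) or normal on the log scale (ratio of ratios), assume these depths, and cover counting error only. At 0.5 times the depth the intervals of the member folds that left out 1 still did, except that the interval for Serpini1 between genotypes after KCl then included 1 (0.88 to 1.02). Named genes were the members, Smarca4, Fos, Npas4, the 3 genes most like each member (mean of 2 FPKM or more) and, of each pathway list, genes past 2-fold in any comparison or else the 2 with the largest ratio. Some genes that the rule selects count in the list totals and are not reported here. Marker genes, Xist, Eif2s3y, Plg, F2 and Serpinf2 are outside this rule. Members and lists were chosen with earlier results of these data known. Python 3.11.15, NumPy 2.4.6, pandas 2.3.3, SciPy 1.17.1 and matplotlib 3.10.9 were used, and the procedure was tested on simulated data. Alternatives were 2 other pseudocounts, 2 other filters and 4 rescalings between libraries.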

Additional observations from a re-analysis of the deposited data

Results flagged for a closer look

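No member had opposite signs in the 2 genotypes or the 2 conditions where each log2 value was at least 0.25 from 0. Among the named genes of the system, Bdnf did: its difference of cKO from wild type was 0.29 at basal KCl and -1.06 after KCl, a change of -1.35. This difference was not tested.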

How the results depend on the processing

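Among the 8 alternatives, the 2 other filters could not change the log2 ratio of any member, because all 5 members passed both. The 200 member values under the 8 alternatives (5 members, 4 comparisons and the difference between responses) therefore include values that could not move. Of the 200, 194 stayed on the same side of 2-fold and 5 changed sign. The 5 were all with presynaptic genes set equal: Plau with KCl in wild type (0.06) and the cKO (0.23), Plat at basal KCl between genotypes (0.03), and Serpini1 between genotypes at basal KCl (0.19) and after KCl (0.16). The 6 that crossed 2-fold were Plat in wild type with presynaptic genes set equal (1.07), Plaur in wild type with 3 settings (up to 1.55), Serpini1 in the cKO with ribosomal protein genes set equal (-1.04) and Plaur at basal KCl between genotypes with 0.1 added (1.17). Over all genes, adding 0.1 moved the counts past 2-fold from 1111 to 1867 for KCl in wild type, 994 to 1665 in the cKO, 197 to 509 between genotypes at basal KCl, 373 to 726 after KCl and 194 to 377 for the difference between responses. Adding 0.5 gave 303 between genotypes at basal KCl. A limit of 5 FPKM gave 245 between genotypes after KCl and 83 for the difference, and ribosomal scaling 1680 and 1625 for KCl in wild type and cKO. The cause was not tested, except that a higher limit tests fewer genes. The share of higher genes among those past 2-fold, with values as deposited and then with ribosomal and presynaptic scaling, was 60.5%, 22.9% and 82.4% for KCl in wild type, 58.8%, 18.1% and 81.4% in cKO cultures, 62.9%, 64.1% and 79.1% between genotypes at basal KCl, 66.5%, 56.7% and 83.0% after KCl, and 45.9%, 35.6% and 50.5% for the difference. These scalings moved the median of all retained genes to -0.35 and 0.22 for KCl in wild type, -0.40 and 0.26 in cKO cultures, and, with presynaptic scaling, 0.21 and 0.25 between genotypes. No paired analysis was possible because each group has 1 library, and for the same reason no library could be left out.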
